A study of Mus musculus with 6 samples.

Results

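The genes described here are 47 mouse genes whose products license, open, copy and protect replication forks. They were taken by name: the origin recognition complex and its loading factors, the helicase, its activating kinase, the sliding clamp and its loader, the replicative polymerases and primase, the enzymes that join Okazaki fragments, a histone chaperone and the factors that hold a fork together. All 47 names matched 1 gene identifier each among the 55536 in the files. CAD cells are a catecholaminergic mouse line of neural origin, labelled male, C57BL/6 x DBA/2 and transformed by Simian virus 40 (SV40), and were used below passage 10. The large T antigen of SV40 is known to bind the retinoblastoma proteins that restrain E2F factors; whether these cells make it was not measured. Messenger RNA was sequenced from 3 libraries of undifferentiated, proliferating cells in medium with 8% serum, and from 3 libraries of cells kept for 5 days in 100 µM dexamethasone, a synthetic glucocorticoid, with 1% serum. The steroid and the lower serum changed together, so every difference below belongs to that combination, in 1 cell line.

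In a dividing cell the origin recognition complex (ORC) marks origins, and Cdc6 and Cdt1 use it to load the ring-shaped helicase of Mcm2 to Mcm7 in G1 phase, before DNA synthesis. In S phase the kinase of Cdc7 and Dbf4 activates the helicase, Cdc45 and the GINS complex join it, and polymerases copy both strands on the clamp that Pcna forms. Geminin, the product of Gmnn, binds Cdt1 after origins have fired and so blocks a further round of loading. Many of these genes are known targets of the E2F transcription factors, and cells that leave the cycle lose many of the proteins.

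The counts summed to between 6411105 and 8757992 reads per library. The defining markers of catecholaminergic neurons were read in both groups, with a summed level of 2358 to 2444 CPM (read counts scaled for depth with TMM factors) in undifferentiated and 1946 to 2023 CPM in dexamethasone libraries, but Hand2, Phox2a and Gata2 carried most of that sum in undifferentiated cells. Of those 10 genes 4 rose and 5 fell (edgeR). Among the defining enzymes, Dbh fell 13.2-fold from 165 to 12.5 CPM, Ddc went from 3.61 to 0.466 CPM, and Th from 4.60 to 9.52 CPM (group means). Markers of other cell types were low: the 6 fibroblast markers summed to 10.1 to 13.7 and 18.3 to 20.3 CPM with Col3a1 at 0, the 4 astrocyte markers to 4.95 to 6.88 and 58.0 to 61.6 CPM, nearly all from Aldoc, and the 3 blood and microglia markers to at most 0.149 CPM, with Ptprc and Cx3cr1 at 0. The 3 oligodendrocyte markers summed to 2.97 to 4.22 and 2.53 to 4.25 CPM with Mog at 0, and the 2 endothelial markers to 18.2 to 20.8 and 33.3 to 35.4 CPM. Their part in the results below was not tested. The samples are labelled independent, without word of separate cultures. The p-values therefore rest on differences between libraries that may be technical.

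Every one of the 47 genes was lower in the dexamethasone libraries. In all 47 the highest dexamethasone library lay below the lowest undifferentiated library, which held for 38.9% of all 12664 tested genes. All 47 were called lower by edgeR's quasi-likelihood test at an adjusted p under 0.05, with a largest adjusted p of 6.49e-12; of all tested genes 38.6% were called lower, 40.3% higher and 78.9% either way. Their median log2 fold change was -2.69, a 6.46-fold fall, beside a median of 0.02 over all tested genes. A fall of at least 4-fold was fitted for 36 of the 47 genes and for 3.41% of tested genes, and a fall of at least 16-fold for 5 of the 47 and for 0.782%. When the fall was tested against a fold of 2, 43 genes passed (8.92% of tested genes), and Rfc1, Cdt1, Orc2 and Gins4 did not. Fewer cells in cycle and less of each RNA per cell cannot be told apart in such bulk libraries.

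Summed over the 47 genes, the level was 6534, 6386 and 6578 CPM in undifferentiated replicates 1, 2 and 3 and 1214, 1155 and 1198 CPM in dexamethasone replicates 1, 2 and 3. The libraries of a group lay close together, and the summed level fell 5.47-fold between the group means. Within the dexamethasone group, replicate 2 held the lowest value of 25 genes and replicate 1 the highest of 24. No gene was lost to the filter on low counts, and reads over the 3 dexamethasone libraries ranged from 28 for Orc1 to 2379 for Rfc1. Only Orc1, Gins1, Pclaf and Cdc6 had fewer than 100 reads there.

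**Figure D1:**
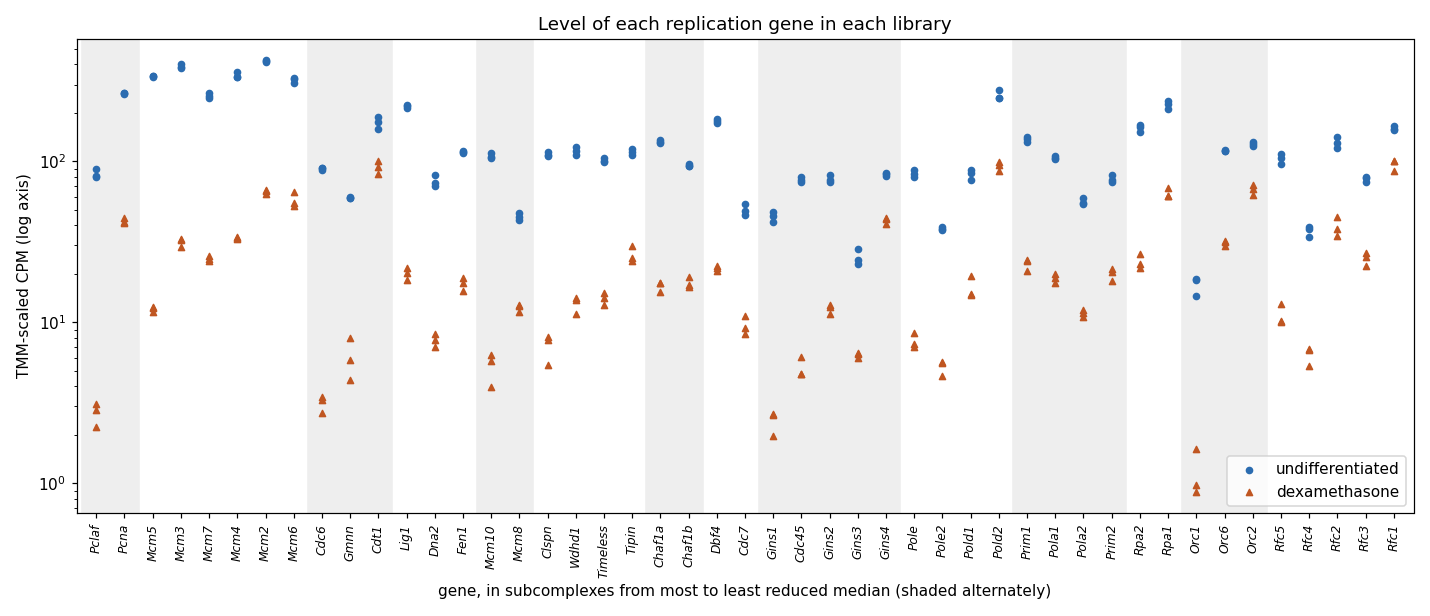
Level of each of the 47 genes in each library, as TMM-scaled CPM on a log axis; circles are the 3 undifferentiated and triangles the 3 dexamethasone libraries, and genes stand in subcomplexes from the most to the least reduced median. The groups do not overlap for any gene, and the gap is narrowest for Rfc1, Cdt1, Orc2 and Gins4.

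The fall was not even. Genes were grouped by complex or shared step. On the log2 scale the medians ran from -3.77 for Pcna and Pclaf to -1.75 for the clamp loader genes Rfc1 to Rfc5. Between them, in order, came Mcm2 to Mcm7 (-3.36), the loading factors (-3.32), the Okazaki fragment enzymes (-3.28) and Mcm8 and Mcm10 (-3.11). The fork protection genes (-3.01), the CAF-1 histone chaperone (-2.71), the Cdc7 and Dbf4 kinase (-2.70) and Cdc45 and GINS (-2.68) followed. Then came polymerases delta and epsilon (-2.59), polymerase alpha and primase (-2.39), the single-strand binding protein RPA (-2.28) and the ORC (-1.90). Pcna, the clamp itself, was at -2.63, near the median of -2.69 over the 47 genes, and its binding protein Pclaf at -4.91. The median of the loading factors was the value of Gmnn, whose product inhibits loading. Counted over these 47 genes, the clamp loader was the least reduced set and the ORC the next, in each of the 16 alternative fits as well. Those fits share the same libraries, and the 2 sets lay close. Set against the undifferentiated mean, the clamp loader median was -1.54, -1.92 and -1.78 in dexamethasone replicates 1 to 3. That of the ORC was -1.88, -1.84 and -1.95, so replicate 2 alone had the ORC less reduced. The order of the complexes also depends on which subunits are listed. The 47 genes hold all 5 subunits of the clamp loader but only 3 of the 6 of the ORC and 4 of the 8 of polymerases delta and epsilon. With Orc3, Orc4 and Orc5 added, the ORC median was -0.68, and with Pold3, Pole3 and Pole4 (Pold4 was not tested) that of polymerases delta and epsilon was -1.45. The ORC was then the least reduced, these polymerases as 1 set the next and the clamp loader the third, again in each of the 16 fits. This count was added after the values were seen. Delta and epsilon are separate complexes, so the place of that set need not hold for each. Delta genes were at -2.32 (Pold1), -1.45 (Pold2) and -0.99 (Pold3). Epsilon genes were at -3.45 (Pole), -2.86 (Pole2), -1.22 (Pole3) and -0.70 (Pole4). Groups of 2 to 6 genes are too small for a comparison of medians to carry a test, and the spread within a complex was often wider than the distance between complexes. It reached 3.92 log2 units in the loading factors and 3.28 in Cdc45 and GINS, and was 0.60 in polymerase alpha and primase.

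**Figure D2:**
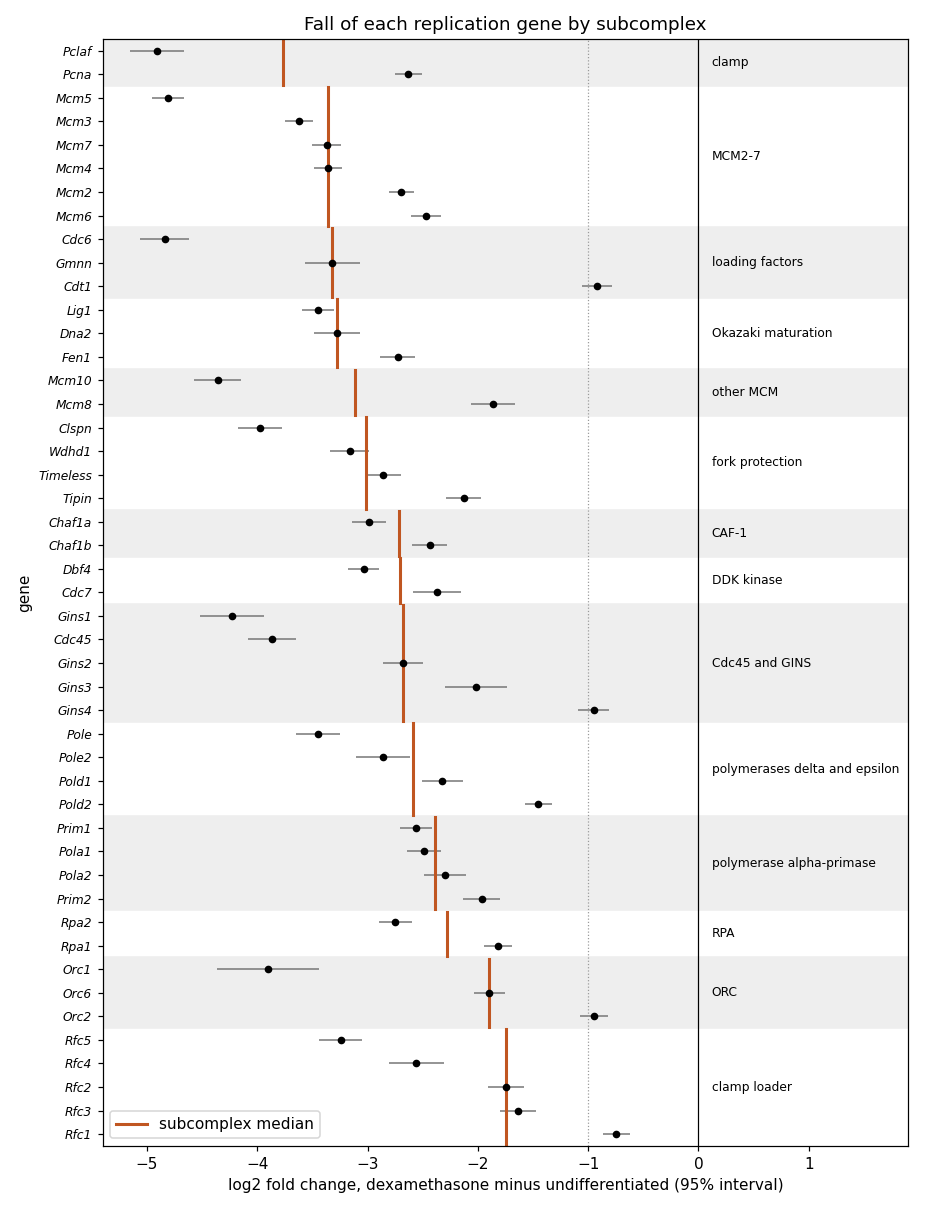
Log2 fold change of each gene (dexamethasone minus undifferentiated) with its 95% interval, by complex; the coloured bar is the complex's median, the dotted line a 2-fold fall and the solid line no change. All 47 intervals lie below 0. Rfc1, Cdt1, Orc2 and Gins4 stand to the right of the 2-fold line. The medians run from -3.77 (Pcna with Pclaf, labelled clamp) to -1.75 (clamp loader).

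The origin recognition complex held both a strongly and a weakly reduced gene. Orc1, the largest subunit and the one whose protein is known to be degraded in each cycle, stood at 18.2, 14.7 and 18.5 CPM in undifferentiated replicates 1 to 3 and at 0.886, 0.981 and 1.64 CPM in the dexamethasone replicates. It fell 14.9-fold (log2 fold change -3.90 ± 0.224 SE; edgeR adjusted p = 5.52e-15), with the widest error of the 47 genes because only 28 reads remained. Orc2, a core subunit, stood at 124, 128 and 132.5 CPM and then at 67.1, 61.4 and 71.5 CPM, a 1.93-fold fall (-0.95 ± 0.063 SE; edgeR adjusted p = 1.23e-13). Orc2 thus kept 52.0% of its undifferentiated level where Orc1 kept 6.82%. Orc6, the smallest subunit, lay between them at 116 ± 1.03 and 31.1 ± 1.21 CPM (SD, n = 3), a 3.72-fold fall. The other 3 subunits, which are not among the 47 genes, had smaller fitted falls: Orc3 fell 1.12-fold, Orc4 1.28-fold and Orc5 1.32-fold (edgeR adjusted p = 0.0239, 2.15e-05 and 0.00263). The call of Orc3 was lost in 7 of the 16 alternative fits, with log2 fold changes from -0.19 to -0.04 over the fits and a largest adjusted p of 0.563. These were the fits with upper quartile factors, library totals, no filter or DESeq2 and those without undifferentiated replicate 2, dexamethasone replicate 1 or dexamethasone replicate 2. Per kilobase of exon, Orc1 was already the scarcest of the 3 listed subunits in undifferentiated cells, at 4.92 CPM per kilobase against 33.2 for Orc2 and 47.0 for Orc6. Orc5, outside the 47 genes, was scarcer still, at 3.035 CPM per kilobase.

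The loading factors separated further than any other set. Cdc6, the ATPase that recruits the helicase to ORC, stood at 87.9, 90.9 and 91.2 CPM in undifferentiated replicates 1 to 3 and at 3.43, 2.73 and 3.28 CPM in the dexamethasone replicates. It fell 28.6-fold (log2 fold change -4.84 ± 0.109 SE; edgeR adjusted p = 5.36e-24), 1 of the 3 largest falls of the 47 genes. Cdt1, which works beside Cdc6, stood at 188, 175 and 160 CPM and then at 83.7, 100.3 and 92.0 CPM. It fell only 1.89-fold (-0.92 ± 0.066 SE; edgeR adjusted p = 6.68e-13) and kept 52.9% of its level. Gmnn, which encodes the inhibitor geminin, stood at 58.8, 59.0 and 60.1 CPM and then at 5.87, 4.36 and 8.04 CPM, a 9.99-fold fall, with dexamethasone replicate 3 the highest and replicate 2 the lowest of its group. The log2 ratio of Cdt1 to Gmnn within a library accordingly rose from 1.55 ± 0.132 to 3.90 ± 0.496 (SD, n = 3), a 5.11-fold shift. The groups did not overlap, which also held for 79.3% of all pairs of tested genes.

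All 6 genes of the MCM2-7 helicase were abundant in undifferentiated cells, at group means of 256 to 419 CPM, and fell unequally. Mcm5 stood at 336, 337 and 340 CPM in undifferentiated replicates 1 to 3 and at 12.4, 11.6 and 12.2 CPM in the dexamethasone replicates. Mcm6 stood at 329, 305 and 323 CPM and then at 64.5, 52.6 and 55.0 CPM. From nearly equal starting levels, Mcm5 therefore fell 28.01-fold (log2 fold change -4.81 ± 0.070 SE; edgeR adjusted p = 1.69e-27) and Mcm6 5.54-fold (-2.47 ± 0.065 SE; edgeR adjusted p = 1.28e-22). Mcm2 fell 6.46-fold, Mcm4 10.2-fold, Mcm7 10.3-fold and Mcm3 12.3-fold.

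The proteins act as a ring with 1 copy of each subunit, so the balance of the 6 RNAs was compared per kilobase of exon. Mcm5 made up 18.0% ± 0.309 of the summed CPM per kilobase in undifferentiated and 6.29% ± 0.092 in dexamethasone libraries (SD, n = 3). Mcm6 went from 14.5% ± 0.354 to 25.6% ± 1.73 and Mcm2 from 12.8% ± 0.207 to 19.4% ± 0.480 (SD, n = 3). Mcm3 went from 22.0% ± 0.250 to 17.5% ± 0.487 (SD, n = 3). For these 4 genes the libraries of the groups did not overlap. The log2 ratios of 79.3% of all pairs of tested genes, a like measure, did not overlap either, so that count alone says little. The shares of Mcm4 (20.3% and 19.5%) and Mcm7 (12.3% and 11.7%) did overlap between the groups. Mcm6 was thus the most abundant of the 6 RNAs per kilobase after treatment and Mcm5 the least, where Mcm3 and Mcm7 had held those places before.

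**Figure D3:**
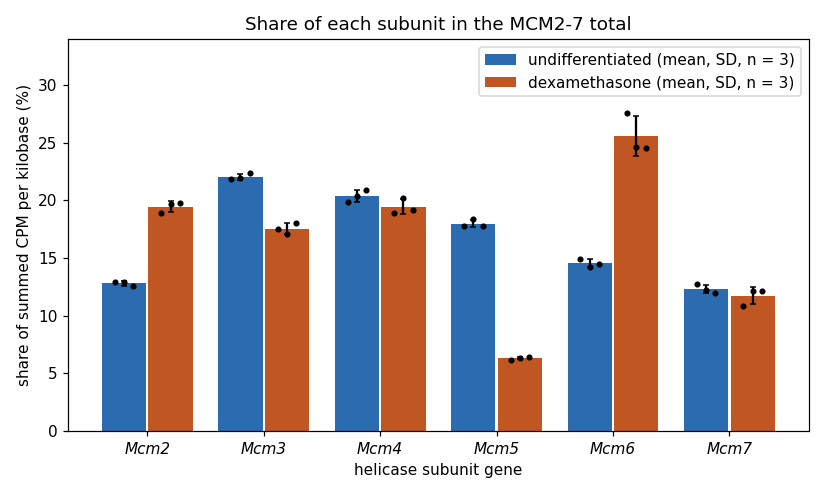
Share of each helicase subunit gene in the summed CPM per kilobase of Mcm2 to Mcm7, in percent; bars are group means with SD (n = 3) and dots are libraries. The share of Mcm5 falls from 18.0% to 6.29% and that of Mcm6 rises from 14.5% to 25.6%.

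The MCM genes outside the ring also fell unequally. Mcm10, which helps the loaded helicase to start unwinding, stood at 107.1, 105 and 113 CPM and then at 3.99, 5.78 and 6.25 CPM, a 20.5-fold fall (log2 fold change -4.36 ± 0.104 SE; edgeR adjusted p = 1.59e-23). Mcm8, which is known mainly for homologous recombination, stood at 43.1, 45.1 and 47.7 CPM and then at 12.8, 12.6 and 11.6 CPM, a 3.64-fold fall (-1.86 ± 0.096 SE; edgeR adjusted p = 4.99e-16).

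The genes that turn the loaded ring into an active helicase spanned almost the whole range. Gins1 stood at 42.1, 48.4 and 45.5 CPM in undifferentiated replicates 1 to 3 and at 2.66, 1.96 and 2.68 CPM in the dexamethasone replicates, an 18.7-fold fall (log2 fold change -4.23 ± 0.140 SE; edgeR adjusted p = 2.58e-20). Gins4, another of the 4 GINS subunits, stood at 84.0, 81.2 and 84.7 CPM and then at 44.5, 43.6 and 40.6 CPM. It fell only 1.93-fold (-0.95 ± 0.067 SE; edgeR adjusted p = 4.92e-13), although the GINS proteins work as 1 complex. Gins2 and Gins3 lay between, 6.41-fold and 4.05-fold lower, and Cdc45 fell 14.6-fold from 77.0 ± 3.10 to 5.21 ± 0.774 CPM (SD, n = 3). Of the kinase that triggers the ring, the regulatory subunit gene Dbf4 fell 8.20-fold from 178 ± 4.87 to 21.7 ± 0.792 CPM (SD, n = 3; edgeR adjusted p = 4.03e-24). The catalytic subunit gene Cdc7 fell 5.18-fold from 49.8 ± 3.81 to 9.57 ± 1.26 CPM (SD, n = 3; edgeR adjusted p = 2.28e-17).

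Pclaf and Pcna, which encode a clamp-binding protein and the clamp itself, fell by different amounts. Pclaf had the largest fall of the 47 genes. It stood at 80.1, 81.4 and 89.6 CPM in undifferentiated replicates 1 to 3 and at 3.10, 2.83 and 2.23 CPM in the dexamethasone replicates, a 30.0-fold fall (log2 fold change -4.91 ± 0.119 SE, with an adjusted p of 2.22e-23 by edgeR). Without dexamethasone replicate 3, its lowest library, Cdc6 took the first place. Pcna stood at 264, 261 and 267 CPM and then at 44.5, 41.5 and 41.7 CPM, a 6.19-fold fall (-2.63 ± 0.058 SE; edgeR adjusted p = 3.84e-24). Reads of Pcna can be shared with its processed pseudogenes Pcna-ps1 and Pcna-ps2, which makes its values less certain. How many reads were shared was not measured, and pseudogenes under other names were not looked for, for Pcna or for the other genes.

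Among the 47 genes the clamp loader had the smallest median fall, and Rfc1 was the least reduced gene. Rfc1, the large subunit that is found only in this loader, stood at 156, 166 and 160 CPM in undifferentiated replicates 1 to 3 and at 100.2, 87.5 and 99.9 CPM in the dexamethasone replicates. It fell 1.68-fold (log2 fold change -0.75 ± 0.060 SE; edgeR adjusted p = 6.49e-12), to 59.7% of its undifferentiated level, and was the least reduced of the 47 genes in each of the 16 alternative fits. Some replication genes outside the 47 had smaller fitted falls, among them Orc3, Orc4, Orc5, Pole4 (-0.70) and Rpa3 (-0.66). The next genes in order, Cdt1 (-0.92 ± 0.066 SE), Orc2 (-0.95 ± 0.063 SE) and Gins4 (-0.95 ± 0.067 SE), lay within an SE of each other. The 4 small subunit genes fell further: Rfc3 3.11-fold, Rfc2 3.35-fold, Rfc4 5.88-fold and Rfc5 9.48-fold. Rfc5 stood at 111, 95.8 and 105 CPM and then at 10.1, 10.2 and 12.96 CPM (-3.24 ± 0.093 SE; edgeR adjusted p = 9.58e-22). These small subunits are known also as parts of alternative loaders, whose own large subunit genes Atad5 and Chtf18 fell 7.45-fold and 4.82-fold.

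Among the polymerases, accessory and catalytic genes did not keep step. Pole, the catalytic subunit gene of leading-strand polymerase epsilon, stood at 83.5, 88.8 and 79.4 CPM and then at 8.64, 7.30 and 6.999 CPM, a 10.9-fold fall (log2 fold change -3.45 ± 0.097 SE; edgeR adjusted p = 6.57e-22). Pold2, the second subunit gene of lagging-strand polymerase delta, stood at 276, 247 and 247 CPM and then at 87.4, 99.2 and 95.0 CPM, a 2.73-fold fall (-1.45 ± 0.060 SE; edgeR adjusted p = 3.5e-18). The catalytic subunit gene Pold1 fell 5.00-fold and Pole2 7.25-fold. An annotated gene on the same strand, Gm49384, covers 245 of the 2881 exon bases of Pole2, and reads there were counted for neither. The 4 genes of polymerase alpha and primase, which lay down the primers, had the smallest spread of the complexes with 3 or more genes: Prim1 fell 5.90-fold (edgeR adjusted p = 5.78e-22), Pola1 5.595-fold, Pola2 4.92-fold and Prim2 3.90-fold (edgeR adjusted p = 4.5e-18).

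Of the genes for RPA, which coats single-stranded DNA, Rpa2 fell 6.72-fold from 161 ± 8.32 to 23.8 ± 2.55 CPM (SD, n = 3; edgeR adjusted p = 2.37e-22). Rpa1, which encodes the large subunit, fell 3.52-fold from 224 ± 12.8 to 63.6 ± 4.48 CPM (SD, n = 3; edgeR adjusted p = 4.83e-20). The enzymes that finish Okazaki fragments all fell, Fen1 the least. The ligase gene Lig1 fell 10.9-fold from 220 ± 5.58 to 20.1 ± 1.64 CPM (SD, n = 3, edgeR adjusted p = 5.65e-25). The nuclease and helicase gene Dna2 fell 9.68-fold (edgeR adjusted p = 6.22e-21). The flap nuclease gene Fen1 fell 6.62-fold from 115 ± 1.16 to 17.3 ± 1.52 CPM (SD, n = 3, edgeR adjusted p = 5.79e-22). Of CAF-1, which places histones on new DNA, Chaf1a fell 7.90-fold (edgeR adjusted p = 4.54e-23) and Chaf1b 5.41-fold (edgeR adjusted p = 1.08e-20). Among the genes that steady a fork and signal its stalling, Clspn fell 15.7-fold, from 115, 110 and 108 CPM to 8.08, 5.45 and 7.74 CPM (log2 fold change -3.97 ± 0.099 SE; edgeR adjusted p = 3.68e-23). Wdhd1, which ties the helicase to polymerase alpha, fell 8.96-fold, Timeless 7.26-fold and its partner Tipin 4.37-fold (edgeR adjusted p = 1.26e-19 for Tipin).

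To test whether these genes fell by different amounts, each gene's log2 CPM was set against the mean of Mcm2 to Mcm7 in the same library. Of the 41 genes outside that reference, 29 fell less than the helicase mean and 6 fell more at a limma adjusted p under 0.05, and 6 were not called. Over all other tested genes 98.3% were called as less reduced or raised and 0.901% as more reduced. Because nearly every gene passes, the adjustment for many tests changes these p-values little. The 6 that fell more were Pclaf (difference -1.45 ± 0.134 SE; limma adjusted p = 3.44e-10), Cdc6 (-1.36 ± 0.119 SE), Mcm10 (-0.93 ± 0.136 SE), Gins1 (-0.71 ± 0.149 SE), Clspn (-0.56 ± 0.113 SE) and Cdc45 (-0.45 ± 0.125 SE; limma adjusted p = 0.00152). The reference genes themselves ran from -1.40 (Mcm5) to 0.90 (Mcm6) around their mean. Of the 6 genes that fell more, all but Pclaf lay inside that range on this scale. Some genes that fell less, such as Pcna (0.75) and Dbf4 (0.36), also lay inside it, while others, such as Rfc1 (2.63), lay above it. The prior count of 2 reads in this scale shrinks the change of genes with few reads, Orc1 above all.

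Rfc1 stood furthest on the other side, 2.63 ± 0.063 SE above the helicase's mean change (limma adjusted p = 1.11e-21), followed by Cdt1 (2.46), Orc2 (2.43), Gins4 (2.42) and Pold2 (1.93). The log2 ratio of Rfc1 to the helicase mean went from -1.14, -0.997 and -1.11 in undifferentiated replicates 1 to 3 to 1.57, 1.48 and 1.602 in the dexamethasone replicates. Orc1, Lig1, Pole, Gmnn, Dna2 and Rfc5 were not called, with intervals of the difference from -0.71 to 0.20 for Orc1 and from -0.21 to 0.08 for Lig1. Those 6 genes are not shown to fall as the helicase did. Calls near the threshold depended on single libraries: Wdhd1, which fell less (limma adjusted p = 0.0163), was not called without undifferentiated replicate 1 or without dexamethasone replicate 3. Orc1 was called as more reduced without dexamethasone replicate 3, Gmnn as less reduced without dexamethasone replicate 2 and Rfc5 as less reduced without dexamethasone replicate 1. With the mean of all other listed genes as the reference in place of the helicase, 19 genes fell less and 15 more.

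**Figure D4:**
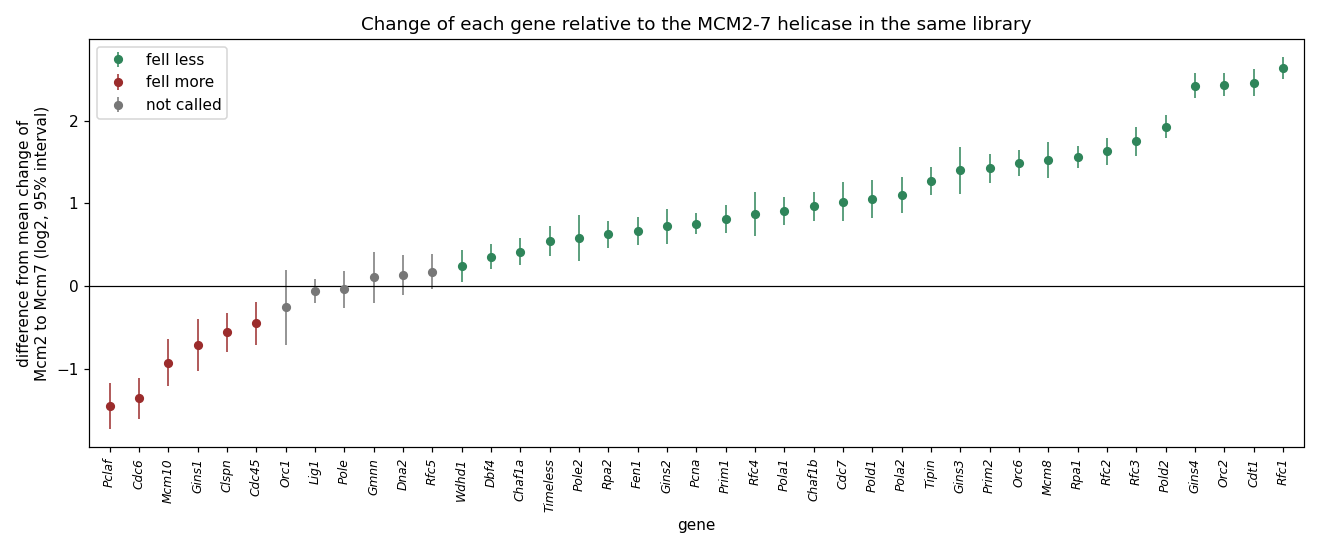
Difference of each gene's change from the mean change of Mcm2 to Mcm7 in the same library, in log2 units with the 95% interval; colours give the limma call at an adjusted p under 0.05. Pclaf (-1.45) and Rfc1 (2.63) are the ends of the order.

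Partners were also compared directly, as the log2 ratio of 2 genes in each library. In 11 of the 12 pairs the libraries of the groups did not overlap, which also held for 79.3% of all pairs of tested genes, so the count alone says little about these partners. With 3 libraries against 3 the two-sided exact permutation test cannot give a p under 0.1, and each of the 11 reached it (0.109 adjusted over the 12 pairs). The largest shifts were those of Orc1 to Orc2 (-2.69, from -2.89 ± 0.188 to -5.58 ± 0.321; SD, n = 3), of Cdt1 to Gmnn (2.35), of Pclaf to Pcna (-2.20) and of Rfc1 to Rfc4 (1.77). Rpa2 to Rpa1 shifted by -0.93, Orc6 to Orc2 by -0.95, Pold2 to Pold1 by 0.88, Tipin to Timeless by 0.72, Dbf4 to Cdc7 by -0.67, Pole2 to Pole by 0.62 and Chaf1b to Chaf1a by 0.55. Only Prim1 to Pola1 overlapped, at 0.38 ± 0.075 and 0.29 ± 0.154 (SD, n = 3; exact permutation p = 0.6).

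**Figure D5:**
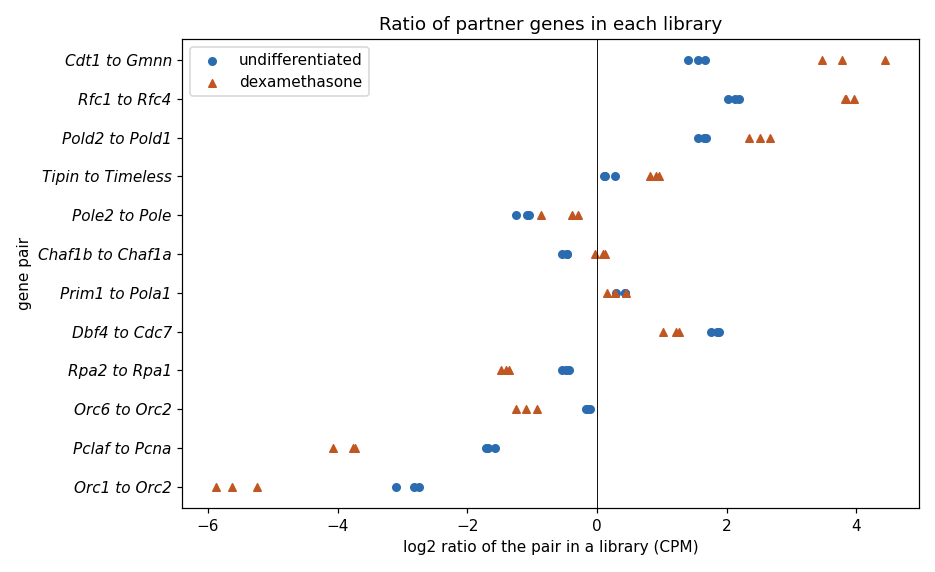
Log2 ratio of partner genes in each library; circles are the 3 undifferentiated and triangles the 3 dexamethasone libraries, and pairs stand in order of their shift. The groups overlap only for Prim1 to Pola1, and the shift is widest for Orc1 to Orc2.

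Promoter sequence was set beside these falls, since the genes moved together and E2F factors are known to act on many of them. The 250 bases before each RefSeq start on GRCm38.p6 were found for 38 of the 47 genes; Gmnn, Mcm4, Gins1, Gins2, Gins4, Rfc2, Prim2, Pole and Tipin had no entry. Sequences below run 5′ to 3′ on the strand of the gene and show the part of that window that no annotated exon covers, up to 190 bases. They were chosen after the values were seen, to set strongly reduced genes (Mcm5 and Cdc6) beside moderately (Mcm6 and Pola1) and weakly reduced ones (Cdt1 and Rfc1). Capitals mark the E2F letters TTTCCCGC, TTTGGCGC, TTTCGCGC or TTTGCCGC on either strand, and matches may overlap.
Mcm5: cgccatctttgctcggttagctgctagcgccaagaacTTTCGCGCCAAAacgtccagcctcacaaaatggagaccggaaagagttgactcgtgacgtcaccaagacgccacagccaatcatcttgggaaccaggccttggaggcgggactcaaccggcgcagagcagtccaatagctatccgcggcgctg
Mcm6: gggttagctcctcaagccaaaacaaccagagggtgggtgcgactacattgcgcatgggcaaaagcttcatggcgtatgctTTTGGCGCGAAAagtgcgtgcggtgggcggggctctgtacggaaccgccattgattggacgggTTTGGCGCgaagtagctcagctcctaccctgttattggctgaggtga
Cdc6: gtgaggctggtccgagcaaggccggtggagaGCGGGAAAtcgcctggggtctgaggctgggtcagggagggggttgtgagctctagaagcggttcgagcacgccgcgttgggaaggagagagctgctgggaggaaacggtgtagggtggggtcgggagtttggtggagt
Pola1: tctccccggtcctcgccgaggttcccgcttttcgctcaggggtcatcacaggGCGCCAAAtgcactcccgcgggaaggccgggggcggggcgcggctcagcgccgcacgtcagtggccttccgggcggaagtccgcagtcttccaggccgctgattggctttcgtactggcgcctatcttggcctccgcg
Cdt1: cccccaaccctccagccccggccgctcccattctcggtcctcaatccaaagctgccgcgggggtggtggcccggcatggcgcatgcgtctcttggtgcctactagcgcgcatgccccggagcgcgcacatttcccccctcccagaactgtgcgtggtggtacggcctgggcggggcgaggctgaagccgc
Rfc1: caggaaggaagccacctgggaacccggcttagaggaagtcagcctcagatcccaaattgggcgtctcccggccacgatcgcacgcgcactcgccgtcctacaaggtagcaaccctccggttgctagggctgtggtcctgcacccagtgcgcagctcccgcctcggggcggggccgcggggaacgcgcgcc

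The stretches lie at chr8:75109319-75109508, plus strand (Mcm5), chr1:128359706-128359895, minus strand (Mcm6), chr11:98907982-98908150, plus strand (Cdc6), chrX:93632156-93632345, minus strand (Pola1), chr8:122567825-122568014, plus strand (Cdt1) and chr5:65335671-65335860, minus strand (Rfc1, ending 31 bases before its start). Mcm5 held 2 matches, which overlap, and Mcm6 held 3, of which 2 overlap; yet Mcm5 fell 28.01-fold and Mcm6 5.54-fold. Cdc6 and Pola1 held 1 match each, and these letters were not in the windows of Cdt1 and Rfc1. Of the 32 genes with a single window, 7 (21.9%) held the E2F letters, against 3.89% of the 7422 tested genes with a single window. The letters CCAAT were in the windows of 20 of the 32 (62.5%, against 37.8%), and TTTGAA or TTCGAA, the letters of the CHR element known from genes of late cell cycle phases, in 4 (12.5%, against 11.8%). Among the 38 genes with any window, the median log2 fold change was -2.93 for the 8 with E2F letters and -2.71 for the 30 without. Falls ran from 3.11-fold (Rfc3) to 28.6-fold (Cdc6) among those 8. Among the 30 without the letters they ran from 1.68-fold (Rfc1) to 30.0-fold (Pclaf). The printed sequences are thus not a fair sample of the 38, and a link between letters and fall was not tested. A match is a description of letters and not a site, and promoter choice and binding were not measured.

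Most other replication genes, outside the 47, also fell, with a smaller median. Of 36 such genes 35 were tested, 32 fell and 1 rose (38.6% and 40.3% of all tested genes), with a median log2 fold change of -1.16. The largest falls were those of Dscc1, a subunit of an alternative clamp loader (23.7-fold), Top2a, the topoisomerase that untangles copied DNA (21.4-fold), and Ticrr, which helps Cdc45 to load (18.6-fold). Primpol, a primase that restarts stalled forks, rose 1.46-fold, from 18.4 ± 3.69 to 27.1 ± 2.24 CPM (SD, n = 3; edgeR adjusted p = 0.000142 for a log2 fold change of 0.55 ± 0.118 SE). Mcm9, the partner of Mcm8, was not called at 25.3 ± 1.502 and 25.5 ± 1.96 CPM (SD, n = 3; 95% interval of the log2 fold change -0.19 to 0.21), nor was Smarcal1, a fork remodeller (-0.26 to 0.09). Pold4 had 1 and 3 reads in the groups and was not tested.

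Genes that control licensing also fell in most cases, 19 of 21 tested with none higher (38.6% of all tested genes were called lower and 40.3% higher) and a median log2 fold change of -1.36. Ccna2, cyclin A2, fell 29.4-fold, the repressive E2F gene E2f8 18.9-fold, and Fbxo5, an inhibitor of the ubiquitin ligase that destroys geminin, 12.4-fold. Dtl, which directs a ubiquitin ligase to Cdt1 in S phase, fell 10.1-fold, from 128 ± 6.56 to 12.5 ± 1.43 CPM (SD, n = 3). The ligase scaffold gene Cul4a (95% interval of the log2 fold change -0.17 to 0.05) and the E2F partner gene Tfdp2 (-0.21 to 0.24) were not called. Skp2, whose product is another ligase adaptor for Cdt1, had no read in any of the 6 libraries; whether reads of this gene could have been counted cannot be told from the files.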

How the data were processed

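Messenger RNA libraries of 6 samples were analysed. The submitters' processing notes name HISAT2 2.2.0, Trim Galore 0.6.4, FastQC 0.11.9, DESeq2 and Subread 1.6.4, and GRCm38 as the build. Exons of an Ensembl annotation of GRCm38 were counted per gene by featureCounts, per the file headers, with a forward strand setting and no option that counts a read for several genes or places. The authors deposited unnormalized read counts, as whole numbers per gene, and the merged exon length per gene is another column the authors' counting tool wrote. Symbols came from GENCODE M21, which matched all 55536 identifiers. Merged exons include rare isoforms, so levels per kilobase are approximate.

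Genes were kept by filterByExpr (minimum count 10, minimum total 15; 12664 genes with 99.8% of counts), scaled with TMM and tested with edgeR 4.0.16 (quasi-likelihood, R 4.3.3, group as the only term), with Benjamini-Hochberg adjustment over all tested genes and a threshold of 0.05. An SE is the log2 fold change divided by the square root of F. At these depths 3 reads in a library equal 0.327 to 0.487 CPM. Change relative to Mcm2 to Mcm7 was tested with limma 3.58.1 (trend, prior count 2). The procedures were tested on simulated data in which few genes changed, so that check does not cover a change as broad as the one seen here. TMM assumes that few genes change; 78.9% of tested genes were called, so levels are relative to the counted mRNA.

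The genes, their grouping and the other lists were chosen with earlier results of these data known. By rule, full statistics go to the largest and smallest fall of each complex and the 3 most and least reduced genes; of the other lists, up to 3 called genes per direction and each gene that did not pass are named. Chtf8, on 1 list, pairs with 2 identifiers and was not used; Orc3, Orc4, Orc5, Pold3, Pole3, Pole4, Rpa3, Rbbp4, Atad5, Chtf18, Dtl and E2f3 were named outside the rule. No 2 libraries of a group matched within counting error (chi-square over its degrees of freedom was 1.65 to 3.19).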

Additional observations from a re-analysis of the deposited data

How the results depend on the processing

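The results were recomputed with other scalings (RLE, upper quartile, library totals), filters, tests (DESeq2 1.42.0, limma voom, robust dispersion), protein-coding genes alone, a stricter threshold, and each library left out. All 47 genes stayed lower in each of these fits at adjusted p under 0.05 or 0.01, and 43 passed against a fold of 2. Upper quartile factors and library totals moved the median of all genes to 0.12 and 0.14 (0.02 with TMM) and those of all 14 complexes alike, by 0.102 and by 0.125 to 0.126. The complexes whose shift exceeded their spread between libraries are given here. Over all tested genes, calls were then 4334 lower and 5692 higher, and 4207 and 5802. With upper quartile factors the medians were -3.26 (MCM2-7), -2.61 (CAF-1), -2.29 (polymerase alpha and primase) and -1.79 (ORC). With library totals they were -3.24, -2.58, -2.27 and -1.77 in the same order, and -2.56 for Cdc45 and GINS. With all other listed genes as the reference, 19 genes fell less and 15 more than it, against 29 and 6 with the helicase. Counts on the other lists were 31 to 32 and 18 to 19 lower, with Orc3 lost in 7 fits and E2f3 in 3. With the subunits outside the 47 genes, a choice made after seeing the data, the medians were -0.68 (ORC), -1.45 (polymerases delta and epsilon), -1.81 (RPA with Rpa3) and -2.44 (CAF-1 with Rbbp4), and the ORC replaced the clamp loader as the least reduced. No pairing of the samples by replicate number was seen (correlations of deviations -0.0947, 0.0357 and -0.071). Such low correlations cannot exclude a pairing, because counting noise lowers them too. With the replicate number as a block all 47 genes stayed lower, and 29 and 6 fell less and more than the helicase mean. In that fit 4803 of all tested genes were lower and 5017 higher, against 4891 and 5106. Depth limits Orc1 most, with 28 reads over the dexamethasone libraries.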

Other observations

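Skp2, the licensing ligase adaptor without a read, was looked at with its neighbours on chromosome 15 after its values were seen. Skp2 (9111985 to 9155425 in GRCm38) had 0 of 45980836 reads over the 6 libraries, which allows up to 0.0652 CPM by counting error, if reads of the gene could be counted at all. Nadk2, the next gene on one side (9071260 to 9110891), which encodes the mitochondrial NAD kinase, also had 0 reads, as did Ranbp3l beyond it. On the other side Lmbrd2, whose annotated span overlaps that of Skp2 on the opposite strand, had 8, 8 and 10 reads in undifferentiated and 25, 23 and 22 in dexamethasone replicates 1 to 3. A silent gene, a gene missing from this line and a gene left without counts in processing cannot be told apart in these files.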
